A study of Mus musculus with 2 samples.

Results

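The pericentral Wnt target genes Glul, Oat, Rgn, Axin2, Lgr5, Tbx3, Slc1a2, Rhbg and Lhpp were taken as a list of 9 symbols, and each of the 9 was present among the 31054 gene rows of a single-cell RNA sequencing matrix of mouse liver. They were described in hepatocytes, defined as barcodes in which Alb, Apoa1, Apoa2, Ttr and Fgb together made up at least 1% of the unique molecular identifiers (UMIs, counts of captured transcripts). This rule and the limits on quality left 8386 hepatocytes of 13151 barcodes. The data were 1 pooled 10x Genomics library of 3' gene counts with a matched hashtag library, in which an antibody-bound oligonucleotide names the mouse of each cell. The question was how these genes varied with the level of Nras, the transgene, and with the number of UMIs in a cell.

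In the liver lobule, blood flows from the portal tract to the central vein, and hepatocytes divide their work along this path. Endothelial cells of the central vein secrete Wnt ligands and the R-spondin RSPO3, which stabilise β-catenin in the adjacent hepatocytes. β-Catenin then acts with TCF factors on genes that mark the innermost hepatocytes, among them glutamine synthetase, which removes the last ammonia from the blood. Glul is the classical marker of this layer, whereas urea cycle and gluconeogenic genes mark the periportal side.

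All 3 mice were of the BL6 strain and received, by hydrodynamic tail vein injection (HDTV), a transposon that carried NRAS and the fluorescent protein mVenus, and their livers were taken at day 6. Per the study's methods the CAGGS promoter drove NRAS with mVenus behind an internal ribosome entry site, and the construct enters only some hepatocytes. The mice received either oncogenic NRAS G12V (2 mice) or NRAS G12V/D38A (1 mouse), a non-oncogenic form, and cells were sorted for mVenus before pooling, so no uninjected liver was included. The deposited table names hashtag 1 as D38A_rep1, hashtag 2 as G12V_rep1 and hashtag 3 as G12V_rep2, whereas the study's methods give hashtag 3 to the G12V/D38A mouse, so mice are named here by hashtag and the genotypes were not compared.

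The hepatocytes held 110391695 UMIs with a median of 3688.5 per cell, and 456, 1400 and 422 of them belonged to hashtags 1, 2 and 3. The other 6108 (72.8%) carried no called hashtag and enter only descriptions. Per hashtag the median depth was 10166, 40130.5 and 2393.5 UMIs. Of the 8386 hepatocytes, 979 lay just inside the threshold, at 1 to 1.5%, and 268 further barcodes lay just outside it, at 0.75 to 1%. Other hepatocyte markers (7 measured genes such as Apob and Cps1) summed to between 8927 and 16541 CPM (UMIs of the gene for each 1000000 UMIs of the cells) in the 4 depth bands of hepatocytes against 1241 CPM in the 1662 other cells. Deep hepatocytes, of at least 10000 UMIs, were divided by their Nras CPM into low (under 300), middle (300 to 1500) and high (1500 or more). Their Nras level was 76.2, 755 and 4629 CPM, and mVenus rose alongside from 7.81 to 94.4 and 309 CPM. In hashtag 1 these bands held 153, 42 and 36 cells, and in hashtag 2 they held 827, 179 and 123. Hashtag 3 held 21 low cells and 4 others, so the contrasts by Nras rest on 2 mice, those of hashtags 1 and 2. When hashtags were instead called by a fixed rule, the bands held 387, 77 and 60 cells in hashtag 1 and 280, 61 and 49 in hashtag 2. Which of the 2 mice had more cells thus depended on the caller, and levels by mouse below are those of the main calls. By the deposited table hashtag 1 carried G12V/D38A and hashtag 2 carried G12V, and by the study's methods both carried G12V. The Nras bands may thus pool oncogenic and non-oncogenic NRAS, and they are not read as a dose of the oncogenic form.

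The members lie on 8 chromosomes of GRCm38 (mm10), and all are protein-coding in the GENCODE annotation. Glul (ENSMUSG00000026473) spans chr1:153899944-153909723, Oat (ENSMUSG00000030934) chr7:132557478-132576398 and Lhpp (ENSMUSG00000030946) chr7:132610638-132706420, so that Oat and Lhpp are close neighbours. Rgn (ENSMUSG00000023070) spans chrX:20549787-20562089 and Slc1a2 (ENSMUSG00000005089) chr2:102658659-102790784. Tbx3 spans chr5:119670669-119684724, Lgr5 chr10:115450311-115587780, Axin2 chr11:108920349-108950783 and Rhbg chr3:88242874-88254709.

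RefSeq promoter sequence (GRCm38.p6) was matched for 4 of the 9 members, Glul, Oat, Slc1a2 and Axin2, and not for Rgn, Tbx3, Lgr5, Rhbg and Lhpp. The 250 bases upstream of the start were searched on both strands for 4 forms of the core letters read by TCF factors. CTTTGAT stood in 3.21% of 32851 promoters of this length, CTTTGTT in 5.03%, CTTTGAA in 4.46% and CTTTGTA in 3.20%, and 14.8% held at least one. Of the 4 members, 1 held a match, Slc1a2, with CTTTGAT on the minus strand beginning 207 bases before the start. The 3 windows below are of the members that changed with Nras and had an entry, written 5′ to 3′ on the strand of the gene, with the match in capitals (it reads ATCAAAG on this strand). Glul lies at chr1:153899679-153899928 (plus strand), Oat at chr7:132576399-132576648 (minus strand) and Slc1a2 at chr2:102706188-102706437 (plus strand).
Glul: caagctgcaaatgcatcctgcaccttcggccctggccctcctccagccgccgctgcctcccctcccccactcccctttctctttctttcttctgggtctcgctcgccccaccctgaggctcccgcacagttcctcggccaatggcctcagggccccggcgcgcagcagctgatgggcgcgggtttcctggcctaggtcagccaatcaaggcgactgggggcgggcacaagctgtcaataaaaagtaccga
Oat: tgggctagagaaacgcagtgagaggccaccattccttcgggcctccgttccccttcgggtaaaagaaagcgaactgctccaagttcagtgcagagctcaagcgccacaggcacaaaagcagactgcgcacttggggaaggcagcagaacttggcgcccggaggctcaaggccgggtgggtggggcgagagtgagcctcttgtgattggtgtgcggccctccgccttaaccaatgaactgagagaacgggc
Slc1a2: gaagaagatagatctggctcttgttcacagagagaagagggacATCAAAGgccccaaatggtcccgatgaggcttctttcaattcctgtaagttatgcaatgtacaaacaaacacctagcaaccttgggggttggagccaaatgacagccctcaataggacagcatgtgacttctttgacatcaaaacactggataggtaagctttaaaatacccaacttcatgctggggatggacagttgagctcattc
The Slc1a2 window falls inside the GENCODE gene, since the RefSeq start lies downstream of the first GENCODE start. A match describes letters and not a bound site, and counts of 3' ends do not tell which start a transcript used.

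With rising Nras, 4 of the 7 members that could be tested fell in deep hepatocytes, namely Glul, Oat, Rgn and Slc1a2, beside 11.6% of all 10873 genes that fell, 11.3% that rose and 22.9% that did either (edgeR quasi-likelihood test on sums per mouse and band, mouse as a block, Benjamini-Hochberg adjusted p under 0.05). From low to middle Nras 3 of the 7 fell, Glul, Rgn and Slc1a2, beside 3.76% of all genes falling, 3.88% rising and 7.64% doing either. The median of the 7 tested members was −1.13 (log2 fold change, high against low) and −0.78 (middle against low), beside −0.03 and −0.02 over all genes. Axin2 and Rhbg had too few UMIs to be tested. Slc1a2 passed the filter on low counts only through the band where it was high, and both medians include it. Of the other 6 tested members 3 fell from low to high, and Glul and Rgn fell from low to middle.

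**Figure D1:**
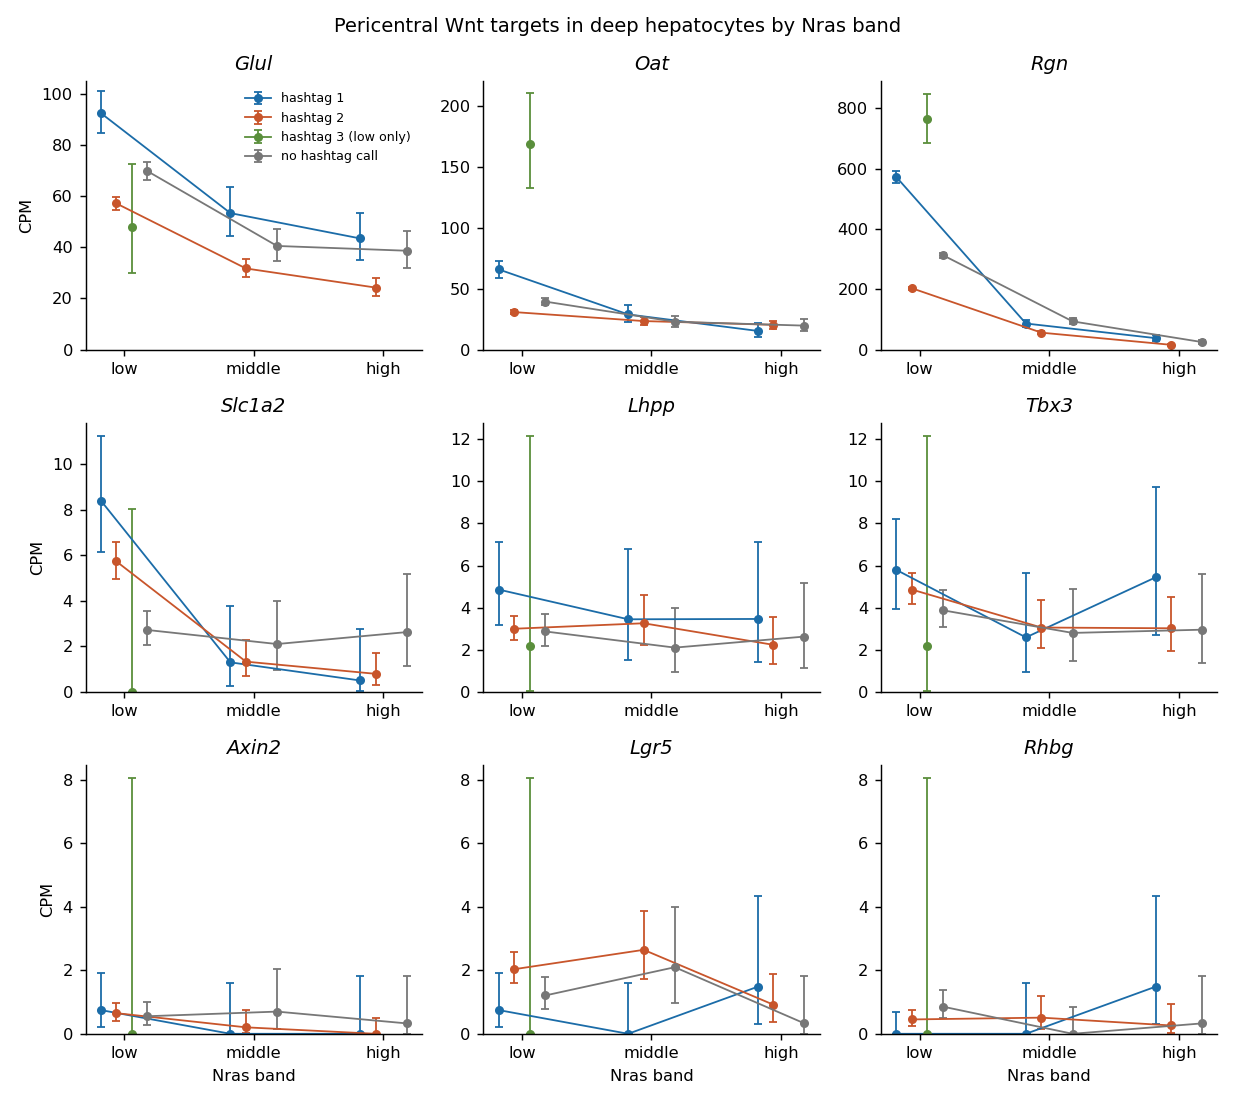
Level of each pericentral Wnt target (CPM, linear axis from 0) in deep hepatocytes of the low, middle and high Nras bands, by hashtag and for cells with no called hashtag; bars are exact 95% Poisson intervals. The low band is the highest of the 3 for Glul, Oat and Rgn in hashtags 1 and 2, and the other 6 genes are at most 8.41 CPM in these 2 mice, with wide intervals.

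Among the genes of glutamine and ammonia handling, Glul encodes glutamine synthetase, which joins ammonia to glutamate. In hashtag 1 Glul was at 92.5 CPM (exact Poisson interval 84.5 to 101) in the low band, 53.4 CPM (44.4 to 63.6) in the middle band and 43.5 CPM (34.9 to 53.6) in the high band. In hashtag 2 it was at 57.2 CPM (54.7 to 59.7), 31.7 CPM (28.3 to 35.5) and 24.3 CPM (20.9 to 28.0). The low band was the highest in both mice and its interval overlapped neither of the others, whereas middle and high overlapped in hashtag 1. Hashtag 3 had 48.0 CPM (30.1 to 72.7) in its 21 low cells. Hepatocytes with no hashtag gave 69.8, 40.5 and 38.7 CPM in the same order. By edgeR the fall from low to high was −1.15 ± 0.12 (log2, SE; adjusted p = 0.000518) and from low to middle −0.80 ± 0.11 (adjusted p = 0.00632). Intervals throughout cover counting error only. A sum does not tell fewer expressing cells from less RNA per cell. Among all hepatocytes of at least 30000 UMIs, the share of cells with a Glul UMI was 62.4% in the low, 64.5% in the middle and 68.3% in the high band, beside 65.0% of the 40 other cells of that depth. Median depth rose over these bands too, from 45727.5 to 56357 and 59753 UMIs. The shares were not set to equal depth, so they cannot tell whether fewer cells expressed Glul.

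Oat encodes ornithine aminotransferase, a mitochondrial enzyme that turns ornithine towards glutamate. Its level in hashtag 1 was 65.8 CPM (59.1 to 73.0) in the low band, 28.8 CPM (22.4 to 36.6) in the middle band and 15.3 CPM (10.4 to 21.7) in the high band. In hashtag 2 the values were 30.8 CPM (29.0 to 32.6), 23.4 CPM (20.5 to 26.6) and 20.3 CPM (17.3 to 23.8). Both mice had their highest level in the low band, but the step was steep in hashtag 1 and shallow in hashtag 2. On the log2(CPM + 1) scale the high band stood at −2.03 against low in hashtag 1 and at −0.57 in hashtag 2. The low cells of hashtag 3 were higher than either, at 168 CPM. The edgeR estimate was −1.13 ± 0.26 for high against low (adjusted p = 0.0195), and −0.72 ± 0.25 for middle against low did not pass (adjusted p = 0.134). In the other cells of hashtags 1 and 2, over all depths, Oat was at 94.6 and 73.8 CPM, above each deep band of the same mouse. How much of the Oat counted in deep hepatocytes came from other cells was not tested.

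Slc1a2 encodes a glutamate transporter of the plasma membrane, and its counts were small. Hashtag 1 gave 8.41 CPM (6.13 to 11.3), 1.29 CPM and 0.494 CPM in the low, middle and high bands, from 45, 3 and 1 UMIs. Hashtag 2 gave 5.73 CPM (4.97 to 6.58), 1.32 CPM (0.704 to 2.26) and 0.787 CPM (0.289 to 1.71), from 203, 13 and 6 UMIs. The low band stood apart in both mice, but a few cells carried it. In hashtag 1, 31 of the 45 UMIs came from 1 cell and only 6 of 153 cells held any, and in hashtag 2 the 203 UMIs came from 43 of 827 cells. The edgeR test gave −3.13 ± 0.42 (adjusted p = 0.00178) for high and −2.26 ± 0.36 (adjusted p = 0.0106) for middle against low. Slc1a2 entered the test only through the low band, where it was high, since no middle or high sum reached the 1.87 CPM that the filter on low counts asked of 2 sums. In the cells with no hashtag the bands did not separate, at 2.71 CPM (2.04 to 3.54), 2.097 CPM (0.959 to 3.98) and 2.62 CPM (1.13 to 5.17). Rhbg, an ammonium transporter of the Rhesus family, was close to the floor of the data. It had 16, 5 and 2 UMIs in the 3 bands of hashtag 2, and in hashtag 1 it had 3 UMIs in the high band and none in the others.

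Rgn encodes regucalcin, a calcium-binding lactonase of ascorbate synthesis, and it had the largest fitted fall of the 7 members tested. In hashtag 1 it was at 572 CPM (552 to 593) in the low band, 86.5 CPM (75.0 to 99.3) in the middle band and 38.1 CPM (30.03 to 47.6) in the high band. In hashtag 2 it was at 203 CPM (199 to 208), 56.1 CPM (51.6 to 61.0) and 15.9 CPM (13.2 to 19.0). The 3 bands were ordered low, middle, high in both mice with no overlap between any pair of intervals. Cells with no hashtag had the same order, at 313, 93.6 and 24.9 CPM. By edgeR Rgn fell by 3.78 ± 0.21 on the log2 scale from low to high (adjusted p = 5.72e-05) and by 2.23 ± 0.18 from low to middle (adjusted p = 0.000995). Lhpp, a protein histidine phosphatase, had levels of 4.86, 3.44 and 3.46 CPM in hashtag 1, while hashtag 2 had 2.99, 3.25 and 2.23 CPM, and all 3 intervals overlapped in each mouse. Its difference between high and low was −0.44 ± 0.36 (edgeR adjusted p = 0.437).

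The members that belong to the Wnt pathway itself, and Tbx3, had low counts. Axin2, a scaffold of the β-catenin destruction complex and a feedback target in most Wnt-responsive tissues, had 23 UMIs in the low band of hashtag 2, 2 in the middle band and 0 in the high band, where the exact interval of a count of 0 reaches 0.484 CPM. In hashtag 1 it had 4, 0 and 0 UMIs. Lgr5, a receptor for R-spondins, had 72, 26 and 7 UMIs in hashtag 2, equal to 2.03 CPM (1.59 to 2.56), 2.64 CPM (1.73 to 3.87) and 0.918 CPM (0.369 to 1.89). The high band was the lowest in this mouse, and its interval overlapped those of both other bands. In hashtag 1 Lgr5 had 4, 0 and 3 UMIs, equal to 0.747, 0 and 1.48 CPM. There the high band was the highest, again with overlapping intervals. The fitted differences of Lgr5 were −0.61 ± 0.87 for high (edgeR adjusted p = 0.683) and 0.13 ± 0.73 for middle (adjusted p = 0.979). Tbx3, a T-box transcription factor downstream of β-catenin, was measured at 5.79, 2.58 and 5.44 CPM for hashtag 1, and hashtag 2 gave 4.86, 3.05 and 3.02 CPM. Its high band was near the low band in hashtag 1 and below it in hashtag 2, and the difference from low was −0.47 ± 0.33 (edgeR adjusted p = 0.358). Axin2 and Rhbg could thus not be tested, and Lgr5, Tbx3 and Lhpp did not pass. Tbx3 passed for high against low when the bands were set at equal size by rank (−0.81, edgeR adjusted p = 0.0435).

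**Figure D2:**
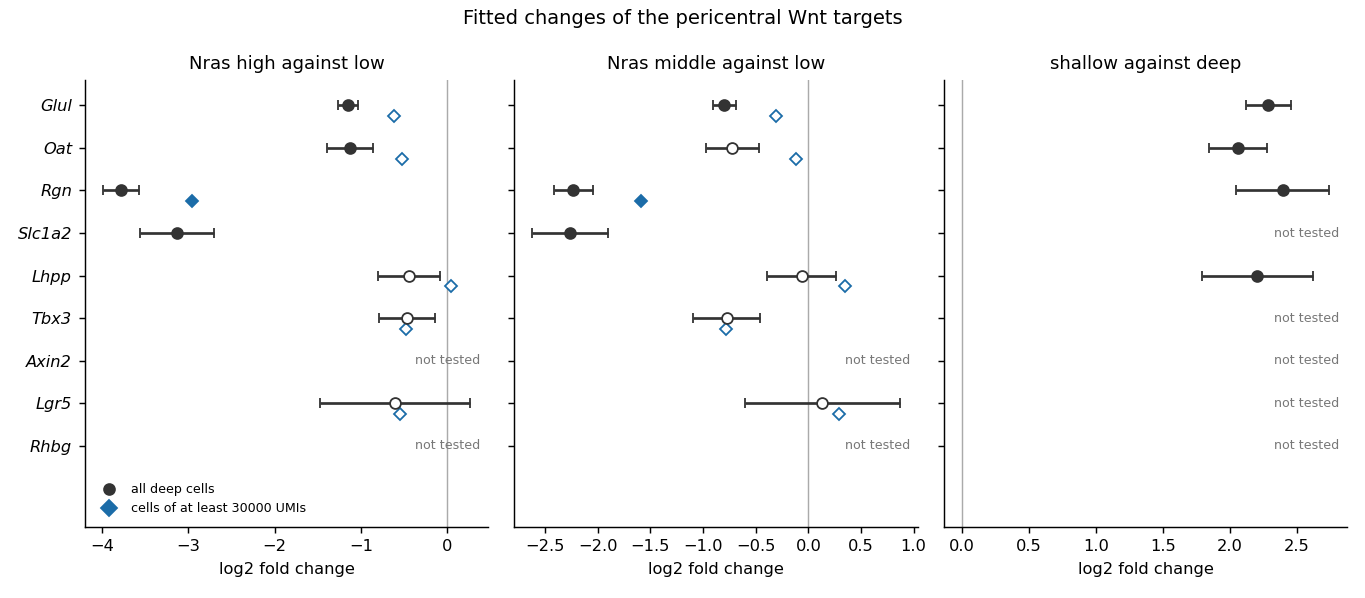
Log2 fold changes (points) with standard errors (bars) from the edgeR fits for the members tested, for all deep cells (circles) and, with no bars, for cells of at least 30000 UMIs (diamonds); filled marks have an adjusted p under 0.05 and the vertical line stands at 0. Rgn and Slc1a2 lie farthest to the left with Nras, at −3.78 and −3.13, and only Rgn keeps a filled diamond, whereas all 4 members tested by depth lie to the right.

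Depth moved with the Nras bands. The median cell of the low band held 28435 UMIs in hashtag 1 and 41918 in hashtag 2, against 57558.5 and 61456 in the high band. When only cells of at least 30000 UMIs were kept, a limit chosen after seeing the data, Rgn still fell (log2 −2.95, edgeR adjusted p = 0.000134), with 151 CPM at low and 32.6 CPM at high Nras in hashtag 1, and 176 and 15.9 CPM for hashtag 2. Glul (−0.62, adjusted p = 0.224) and Oat (−0.52, adjusted p = 0.0535) no longer passed, and Slc1a2 was too low to be tested. Glul in hashtag 1 then turned round, at 34.0 CPM in the low band, 54.1 CPM in the middle band and 44.4 CPM in the high band, whereas hashtag 2 kept its order at 54.1, 30.4 and 24.4 CPM. Oat in hashtag 1 was then highest in the middle band, at 20.6, 26.4 and 15.3 CPM for low, middle and high. In hashtag 2 Oat kept its order at 28.9, 23.6 and 19.9 CPM. Thus 1 of 6 members tested passed at that depth. Depth still differed among these cells, with low-band medians of 52441 and 46828 UMIs in hashtags 1 and 2 and high-band medians of 63314 and 62567. The part of depth in the calls, that of Rgn included, was not tested further. Among deep cells with at least 2% mitochondrial UMIs, also added after seeing the data, all 4 passed, with Glul at −0.89 (edgeR adjusted p = 0.0253), Oat at −0.64 (0.0217), Rgn at −3.10 (0.000694) and Slc1a2 at −3.17 (0.00241).

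Other measures moved with the bands too. The 5 genes of the hepatocyte rule summed to 73023 CPM in the low band of hashtag 1 and 53134 CPM in its high band, and to 99230 and 49659 CPM in hashtag 2, given with no test since they chose the cells. Endothelial markers (7 genes) summed to 121 CPM in the low band of hashtag 1 and 15.3 CPM in its high band, and to 14.9 and 12.1 CPM in hashtag 2. The dendritic list, which holds the class II genes H2-Aa and Cd74, was at 1989 CPM (low) and 294 CPM (high) in hashtag 1, but at 192 and 327 CPM for hashtag 2. The macrophage, T and NK, B, stellate and cholangiocyte lists summed to at most 12.2 CPM in each band of both mice. With barcodes that held other markers left out, the same 4 members passed. With the hepatocyte threshold raised to 5%, Oat no longer did (−0.39, edgeR adjusted p = 0.346).

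Zonation genes of both sides of the lobule fell with Nras by the same edgeR test, read here against the 11.6% of all genes that fell and the 11.3% that rose. Among the 7 other hepatocyte markers, which include the periportal gene Cps1, 4 also fell and 0 rose from low to high, with a median of −0.88. Of 22 other pericentral genes 20 could be tested, and 15 fell and 1 rose from low to high, with a median of −1.41. Cyp2e1, a cytochrome P450 that oxidises ethanol, was at −4.07, the glutathione transferase Gstm3 at −2.42, angiogenin (Ang) at −2.27 and hepcidin (Hamp) at −2.03, while the xenobiotic receptor Ahr was higher by 1.11. Of 21 periportal genes 18 fell and 2 rose (Ctsc and Sox9), with a median of −2.15. Among those with a mean of at least 10 CPM over the sums, the largest falls were in Cyp2f2 at −4.48, glucose-6-phosphatase (G6pc) at −4.03, ornithine transcarbamylase (Otc) at −2.76 and Pigr at −2.66. Of the 21 listed enzymes and carriers of glutamine and ammonia outside the members, 17 were tested, 7 fell and 2 rose. With the same limit of 10 CPM, the falls were led by Gpt (−1.75), Gls2 (−1.72), Slc38a4 (−1.64) and Aldh4a1 (−1.30). Gls2 stands in both of the last lists. These lists were set with earlier results of these data known.

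The Wnt machinery was described by the same fit. Of 27 core components 24 were tested, 1 rose and 3 fell between low and high Nras, with a median of 0.03, and these counts are not set apart from the 22.9% of all genes that did either. Ctnnb1, which encodes β-catenin, was higher by 0.44 ± 0.11 (edgeR adjusted p = 0.0254). Tcf7l2, its DNA-binding partner in hepatocytes, was at −0.66 ± 0.15 (adjusted p = 0.0171), the co-activator Bcl9l at −1.14 ± 0.21 (adjusted p = 0.00704) and the receptor Fzd8 at −1.30 ± 0.32 (adjusted p = 0.0241). None of the 24 passed between low and middle Nras in edgeR at the adjusted threshold, and 3 (Bcl9l, Ctnnb1 and Fzd8) had an unadjusted p under 0.05. Of 16 feedback and general Wnt targets 10 were tested. Cd44 (2.29 ± 0.18, adjusted p = 0.000174) and cyclin D1, Ccnd1 (1.43 ± 0.12, adjusted p = 0.000254), rose, and the R-spondin receptor Lgr4 fell (−0.64 ± 0.16, adjusted p = 0.0243). Among 7 ligands only Rspo3 had enough counts, and it was higher in the high band (3.70 ± 0.65, edgeR adjusted p = 0.00561), where hashtags 1 and 2 had 3.95 and 3.02 CPM against 0.374 and 0.198 CPM in the low band. The low cells of hashtag 3 were at 17.5 CPM, and of the 3 sums in which Rspo3 reached the filter limit of 1.87 CPM the other 2 were the high ones, where it was higher.

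Depth was taken next. Shallow hepatocytes of low Nras (1000 to 10000 UMIs) were compared with deep ones of low Nras in all 3 mice, with 202, 238 and 330 shallow cells in hashtags 1, 2 and 3. The 4 members that passed the filter on low counts were higher in shallow cells, 3 of them (Glul, Oat and Rgn) with counts enough in both groups, beside 15.6% of 7082 genes that were higher, 17.3% that were lower and 32.9% that were either. The median of the 4 was 2.25 beside 0.00 over all genes, and it includes Lhpp, which passed only through the shallow sums. Glul was at 406, 386 and 263 CPM in the shallow cells of hashtags 1, 2 and 3 against 92.5, 57.2 and 48.0 CPM in the deep ones. The shallow interval lay above the deep one in each mouse (edgeR log2 2.29 ± 0.17, adjusted p = 0.000661). Oat was at 261, 221 and 578 CPM against 65.8, 30.8 and 168 CPM, again with no overlap within a mouse (2.06 ± 0.22, edgeR adjusted p = 0.00118).

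Rgn stood at 2979, 2493 and 2409.6 CPM in shallow cells and at 572, 203 and 764 CPM in deep ones (2.39 ± 0.35, edgeR adjusted p = 0.00286). The shallow values of the 3 mice were close to each other, whereas the deep values ranged from 203 to 764 CPM. Lhpp stood at 27.5, 13.2 and 15.5 CPM against 4.86, 2.99 and 2.18 CPM (2.20 ± 0.41, edgeR adjusted p = 0.00727), and its intervals overlapped in hashtag 3, where the deep value was 1 UMI. Without hashtag 1 Lhpp was at 2.07 and did not pass (edgeR adjusted p = 0.0837). Lhpp also entered the test only through the shallow sums, the group where it was high, since no deep sum reached the limit of 9.54 CPM that the filter on low counts set. Slc1a2, Tbx3, Axin2, Lgr5 and Rhbg were too low in these sums to be tested. With deep cells taken from 5000 UMIs none of the 4 passed (edgeR, log2 1.55 to 1.89, adjusted p from 0.0984 to 0.114), although all 4 had an unadjusted p under 0.05. With the hepatocyte threshold at 5%, 1 of 3 passed, Rgn.

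Shallow cells also differed in composition. Mitochondrial UMIs made up a median of 0.310% in shallow and 8.45% in deep cells of low Nras, and the nuclear RNA Malat1 was at 1568 and 11078 CPM. The hepatocyte rule genes were lower in shallow cells, at 32379, 44166 and 23581 CPM against 73023, 99230 and 64679 CPM in hashtags 1, 2 and 3. Endothelial markers were higher in shallow cells, at 407, 549 and 3858 CPM against 121, 14.9 and 983 CPM, and 7 of 7 genes passed. The T and NK, B and macrophage lists were higher in the shallow cells of each mouse as well, at 19.7 to 127 CPM against 0 to 24.02 CPM. The dendritic list went both ways, at 1521, 2161 and 535 CPM in shallow against 1989, 192 and 1404 CPM in deep cells, and 0 of its 3 tested genes passed by edgeR. With barcodes that held other markers left out, the same 4 members passed. Other pericentral genes were divided by depth, with 7 higher and 3 lower of 20 tested and a median of 0.06, and periportal genes had 11 higher and 6 lower of 20 with a median of 0.67.

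**Figure D3:**
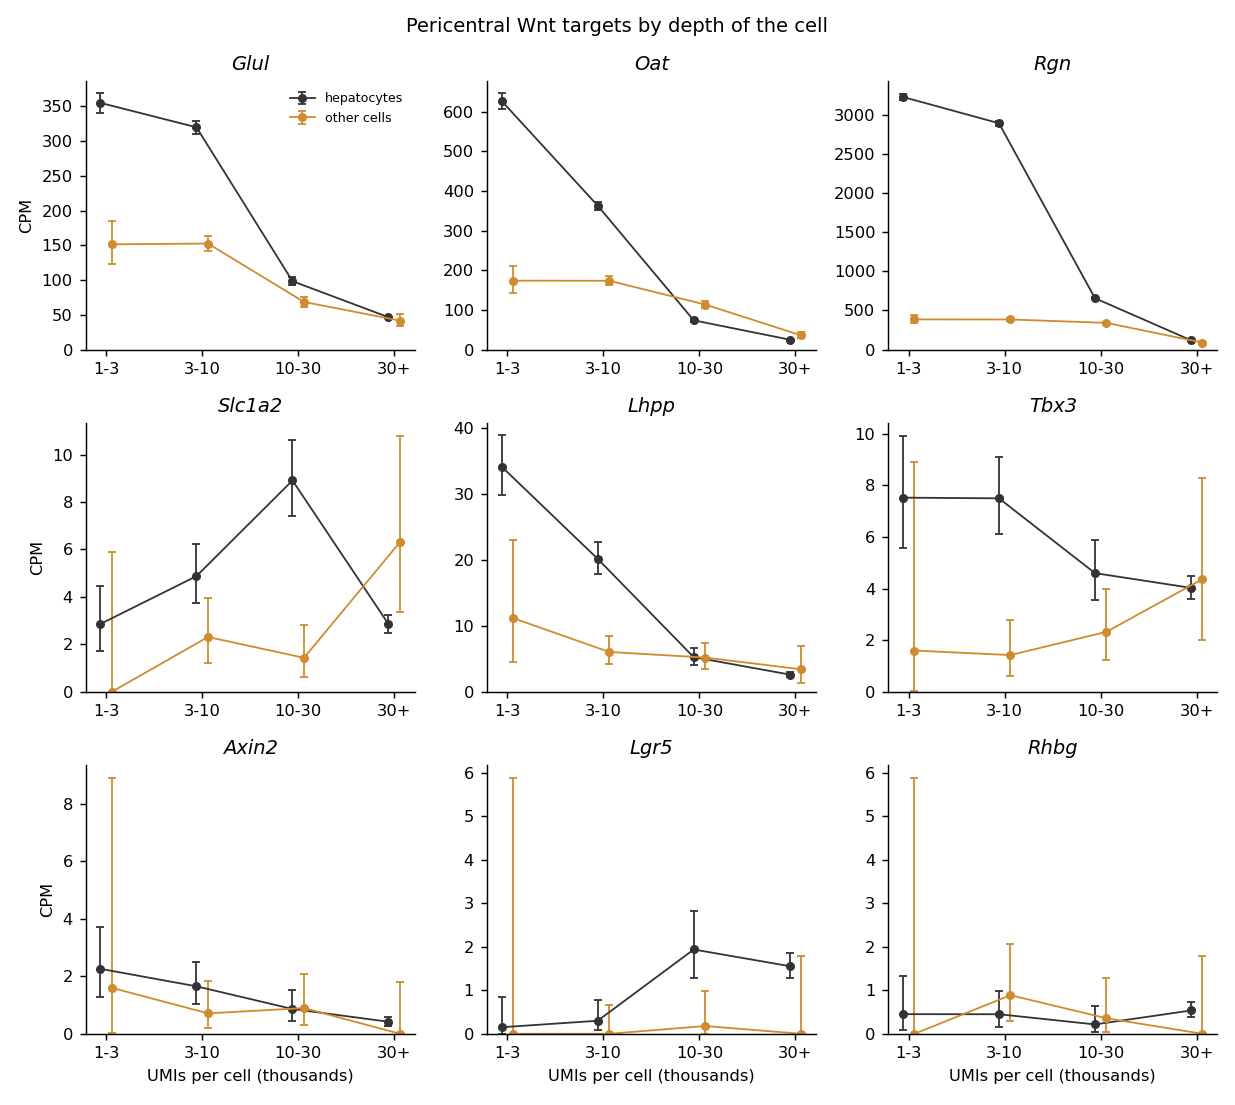
Level of each pericentral Wnt target (CPM, linear axis from 0) over 4 bands of depth (UMIs per cell, in units of 1000) in all hepatocytes and in the other cells of the library, with exact 95% Poisson intervals. Glul, Oat, Rgn and Lhpp fall from left to right in hepatocytes, Slc1a2 peaks at 10000 to 30000 UMIs and Lgr5 is higher in the 2 deeper bands.

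Over all hepatocytes, with or without a hashtag, 3566 cells had 1000 to 3000 UMIs, 2584 had 3000 to 10000, 752 had 10000 to 30000 and 1484 had 30000 or more. Glul went from 355 and 320 CPM in the 2 shallower bands to 98.5 and 46.7 CPM in the deeper ones. Rgn went from 3229 and 2893 to 657 and 119 CPM, Oat from 627 and 363 to 73.8 and 25.1 CPM, and Lhpp from 34.2 and 20.2 to 5.24 and 2.60 CPM. Each of these 4 genes was lower in every deeper band, and the intervals of neighbouring bands did not overlap for any of the 4. Tbx3 was at 7.52, 7.50, 4.598 and 4.03 CPM. Its interval at 3000 to 10000 UMIs (6.10 to 9.12) lay above both deeper ones (3.54 to 5.87 and 3.59 to 4.50), whereas the 2 shallower bands overlapped, as did the 2 deeper ones. Axin2, from 81 UMIs in all, went from 2.26 to 0.418 CPM.

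Slc1a2 and Lgr5 did not share this course. Slc1a2 was at 2.86, 4.87, 8.91 and 2.85 CPM, highest at 10000 to 30000 UMIs, where 1 cell gave 31 of its 124 UMIs. Lgr5 was at 0.150 CPM (1 UMI) and 0.300 CPM (4 UMIs) in the shallower bands and at 1.94 CPM (27 UMIs) and 1.56 CPM (119 UMIs) in the deeper ones. The deeper intervals, 1.28 to 2.82 and 1.29 to 1.86 CPM, lay above the shallower ones, which reached no higher than 0.838 CPM. These are pooled over mice, and within hashtag 2 shallow cells of low Nras were at 1.88 CPM (2 UMIs) and deep ones at 2.03 CPM. Of the 151 Lgr5 UMIs in hepatocytes 107 came from hashtag 2, and the 1662 other cells held 1. Rhbg stayed between 0.216 and 0.536 CPM.

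**Figure D4:**
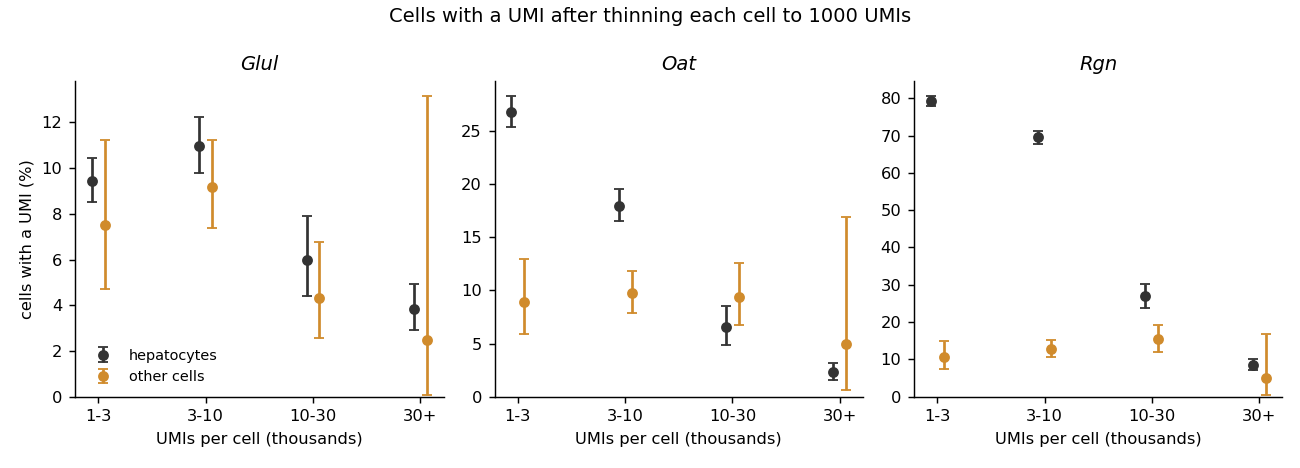
Share of cells with at least 1 UMI of Glul, Oat or Rgn after each cell was thinned to 1000 UMIs, by depth of the cell before thinning, in hepatocytes and in other cells, with exact 95% binomial intervals. Hepatocytes lie far above other cells for Rgn in the 2 shallower bands, and for Glul the intervals of the 2 kinds of cell overlap in each band.

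After each cell was thinned to 1000 UMIs, so that cells of all depths had the same chance of a count, Rgn was found in 79.3% of hepatocytes at 1000 to 3000 UMIs, 69.5% at 3000 to 10000, 27.0% at 10000 to 30000 and 8.49% at 30000 or more. In the other cells the shares were 10.7%, 12.9%, 15.4% and 5.0%. These cells are not a blank for free RNA, since single ones held up to 158 Rgn and 126 Glul UMIs. The Rgn share exceeded that of other cells in the 3 shallower bands, and its interval in the deepest band (7.12 to 10.0%) lay within that of the 40 other cells there (0.611 to 16.9%). Oat was found in 26.8%, 18.0%, 6.52% and 2.29% of hepatocytes against 8.93%, 9.72%, 9.38% and 5.0% of other cells, so it exceeded other cells only in the 2 shallower bands. Glul was found in 9.45%, 10.95%, 5.98% and 3.84% of hepatocytes and in 7.50%, 9.18%, 4.33% and 2.50% of other cells. At this depth its share was not distinguishable from the level in other cells, some of which may express Glul, although its CPM was higher in hepatocytes in the 3 shallower bands (355 against 152 CPM in the shallowest).

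At 3000 to 10000 UMIs Glul was concentrated in few cells. Cells with a Glul level of at least 1000 CPM, a limit chosen after seeing the data, made up 192 of 2584 hepatocytes of that depth (7.43%, exact interval 6.45 to 8.51) and held 85.0% of all Glul UMIs there. Their Glul level ran from 1034 to 12191 CPM with a median of 2990 CPM, and the highest cell below the limit stood at 999.7 CPM. The share was 9.84%, 8.38% and 8.90% in hashtags 1, 2 and 3, with overlapping intervals. In other cells of the same depth it was 26 of 926 (2.81%, 1.84 to 4.09). In deep hepatocytes 19 of 2236 cells reached the limit and held 14.8% of the Glul UMIs, with a median depth of 11257 UMIs and 0.281% mitochondrial UMIs against 8.43% in the rest. By Nras, the share at 3000 to 10000 UMIs was 7.81% (6.74 to 8.98) of low, 4.70% (2.37 to 8.26) of middle and 3.45% (0.420 to 11.9) of high cells, and these intervals overlapped. At 10000 to 30000 UMIs it was 18 of 646 low cells, 0 of 69 middle cells and 0 of 37 high cells, where the exact intervals of a count of 0 reach 5.21% and 9.49%.

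The other members were higher in these cells, given here as a description with no test, since the cells were chosen by Glul. At 3000 to 10000 UMIs, Oat was at 2150 CPM in Glul-high cells and 227 CPM in the rest, a ratio of 9.47. Slc1a2 was at 55.2 against 1.05 CPM, from 52 and 13 UMIs, a ratio of 52.6. Lhpp was 6.39-fold, Tbx3 5.11-fold and Rgn 2.46-fold higher, so that the 5 members with at least 50 UMIs were all at least 2-fold higher (median log2 2.60). Axin2 had 8 UMIs in the 192 cells and 14 in the other 2392. Of 20 other pericentral genes 8 were at least 2-fold higher and 1, Hamp, at least 2-fold lower (median log2 0.93), whereas of 21 periportal genes none was 2-fold higher and 9 were 2-fold lower (median log2 −0.93).

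**Figure D5:**
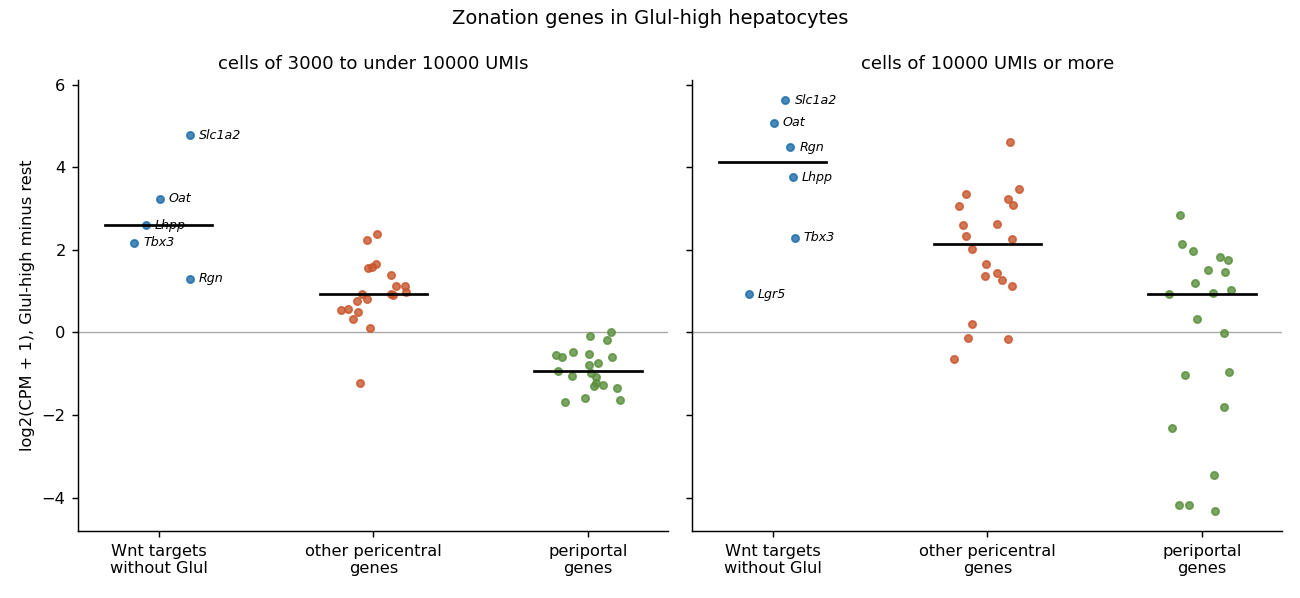
Difference in log2(CPM + 1) between Glul-high cells and the rest for members, other pericentral genes and periportal genes (1 point a gene), in hepatocytes of 3000 to 10000 UMIs and of at least 10000 UMIs. Black lines mark medians. In the shallower cells members lie above 0, and 9 of 21 periportal genes lie at least 2-fold lower, and in deep cells the periportal genes spread to both sides.

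The genes most like Glul across cells differed by depth. Over 2236 deep hepatocytes thinned to 10000 UMIs, the 5 of 6457 genes with the highest Spearman correlation were Cebpb (0.276), Atf3 (0.274), Socs3 (0.259), Zfp36 (0.249) and Junb (0.248), which encode immediate-early and stress-response regulators. Oat ranked 59 (0.122) and Rgn 94 (0.103). Over 2584 hepatocytes of 3000 to 10000 UMIs thinned to 3000, a set added after seeing the data, the first 5 of 2985 genes were Oat (0.370), Rgn (0.342), Gstm3 (0.314), Akr1c6 (0.272) and Phyh (0.267). Lhpp (0.211) and Slc1a2 (0.180) were lower, and Lgr5 was at 0.02. These values are across cells of 1 library that share hashtags and free RNA, and weak values are no finding in sparse counts.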

How the data were processed

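Raw UMI counts per gene and barcode, and per hashtag and barcode, were used as the authors deposited them (Cell Ranger on mm10, version 2.1.1 in the submitters' processing notes, and CITE-seq-Count, not normalised). Hashtags were called with HTODemux (Seurat 5.3.0, positive quantile 0.99), which gave 5482 single tags, 271 doublets and 7398 negatives of 13151 barcodes, and hashtag doublets were left out (115 among hepatocytes). No other doublet caller was run. Barcodes in both libraries with at least 1000 UMIs, 500 genes and under 20% mitochondrial UMIs were kept. Nras and mVenus were left out of depth.

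Cells of 1 mouse are not replicates, so UMIs were summed per hashtag and band (sums under 10 cells left out) and tested with edgeR 4.0.16 in R 4.3.3 (TMM, filterByExpr, quasi-likelihood F-test, Benjamini-Hochberg over all genes, threshold 0.05) with the mouse as a block. The block pairs sums because they come from the same animal. Single levels carry exact Poisson and shares exact binomial (Clopper-Pearson) 95% intervals, with a floor of 3 counts. The fits were tested on simulated data. DESeq2 1.42.0 and other settings were alternatives. The named genes were all 9 members and, of each list, up to 4 that passed with the largest change between high and low Nras and a mean of at least 10 CPM, plus the 5 genes most correlated with Glul. The members and lists were chosen with earlier results of these data known. Of 168 list symbols 167 were in the matrix. Some genes of the glutamine and ammonia list are not reported here.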

Additional observations from a re-analysis of the deposited data

How the results depend on the processing

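From low to high Nras the change was below 0 in all alternatives that gave a value for Rgn (18 of 18), Glul (18 of 18), Oat (18 of 18) and Slc1a2 (16 of 16), and it passed in 16 of 16, 14 of 16, 11 of 16 and 13 of 14 of those with a test. The alternative with at least 5 cells per sum held the same sums as the main fit. Its results repeat the main ones in these counts and in those for low to middle. The count of members that passed, 4, was 2 without the replicate block (Glul at adjusted p = 0.0757 and Oat at 0.0577) and 1 in cells of at least 30000 UMIs. Other losses were Slc1a2 by DESeq2 (adjusted p = 0.055) and Oat with mVenus bands (0.0681) and with deep cells from 5000 UMIs (0.0725). The count over all genes, 2490, was 936 by DESeq2, 1093 in thinned cells and 689 with a hepatocyte threshold of 5%. From low to middle Nras the 831 genes became 313 by DESeq2, 1677 without the count filter, 446 without the replicate block (271 higher, 175 lower), 106 with mVenus bands (89 higher, 17 lower), 382 in thinned cells, 76 at the 5% threshold, 11 with bands of equal size by rank and 1450 without barcodes of other markers. The 3 members became 1 by DESeq2, 1 without the replicate block, 1 in cells of at least 30000 UMIs, and 0 by edgeR with mVenus bands and with bands of equal size by rank, where 4 and 4 had an unadjusted p under 0.05. The change from low to middle was below 0 in all alternatives that gave a value for Rgn, Glul and Slc1a2. It passed in 14 of 16, 8 of 16 and 10 of 13 of those with a test.

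Between shallow and deep cells the 2332 genes became 566 in thinned cells, 299 with deep cells from 5000 UMIs (33 higher, 266 lower), 275 with hashtags called by a fixed rule and 59 at the 5% threshold, and the 4 members became 2, 0, 2 and 1. Leaving out 1 mouse gave 1018 to 3015 genes (1018 without replicate 1, 1468 without replicate 2) and 3 to 4 members. For the Nras contrasts, leaving out hashtag 1 or 2 left 1 mouse and no test, and the single ratios are in the text for Oat. Genes that turned sign without passing were Lgr5 for high against low (0.23 by DESeq2, 0.31 at 5%, 0.51 in hashtag 1 alone), Lgr5 for middle (−0.39 by DESeq2, −0.81 in hashtag 1 alone), Lhpp for high (0.018 with mVenus bands, 0.045 from 30000 UMIs) and Lhpp for middle (0.35 from 30000 UMIs, 0.25 with at least 2% mitochondrial UMIs, 0.088 at 5%, 0.018 without other markers). The cause was not tested. The limits of 30000 UMIs and of 2% mitochondrial UMIs, and shallow cells from 3000 UMIs, were chosen after seeing the data. Tbx3 passed for high against low with bands of equal size by rank (−0.81, adjusted p = 0.0435). The fewest UMIs over all hepatocytes were those of Axin2 (81), Rhbg (53) and Lgr5 (151), and low counts limit Slc1a2 (426) and Tbx3 (522) as well.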

Other observations

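In cells of 1000 to 3000 UMIs, Oat did not follow Glul and Rgn across the Nras bands. Over all hepatocytes of that depth Oat was at 588 CPM (exact Poisson interval 568 to 609) in the low band, 765 CPM (718 to 815) in the middle band and 977 CPM (786 to 1201) in the high band, from 2887, 630 and 49 cells. In the high band the 90 Oat UMIs lay in 10 of the 49 cells, and 1 cell held 37 of them. The share of cells with an Oat UMI was 34.5% in the low, 40.3% in the middle and 20.4% in the high band. Glul was at 368, 318 and 141 CPM and Rgn at 3281, 3156 and 1281 CPM in the same bands. At this depth 1 Nras UMI places a cell in the middle band or above, and the values are of a pooled library with no test. At 3000 to 10000 UMIs Oat was at 363, 421 and 141 CPM, Glul at 336, 192 and 199 CPM and Rgn at 3037, 2103 and 504 CPM, so that Rgn was lowest at high Nras in both bands of depth.

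Of the Wnt and R-spondin ligands, Wnt2 (log2 2.91, edgeR adjusted p = 0.0339) and Rspo3 (3.43, adjusted p = 0.0151) were higher in shallow than in deep hepatocytes of low Nras, 2 of 2 tested, and each reached the limit of the filter on low counts in 2 shallow sums and 1 deep sum. Endothelial markers, of the cells that secrete both ligands in liver, rose in the same sums, and their part in these values was not tested.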
